A study of Mus musculus with 7 samples.

Results

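The SLAM receptors and their adaptor SAP were examined in CD4+ splenocytes of 4 wild-type mice (WT1 to WT4) and 3 mice labelled RT (RT1 to RT3). The members were chosen by gene symbol, with no measured value involved: Slamf1, Slamf6, Slamf7, Ly9, Cd84, Cd48 and Sh2d1a, 7 of the 19589 genes in the deposited table. All 7 were present in the table. Every mouse was of the C57BL/6 strain. The wild-type mice carried no labelled alteration, and the RT mice were Tet2-/- and carried the G17V form of RHOA. Tet2 encodes a dioxygenase that oxidises 5-methylcytosine, and G17V RHOA is a mutant of the small GTPase RHOA that is known from angioimmunoblastic T cell lymphoma. The labels name no treatment. Neither the age of the mice nor the promoter that drives G17V RHOA is stated in the labels. The RNA was that of CD4+ cells sorted from spleen, so it was a mixture of CD4+ subsets. In such bulk RNA, fewer cells of a type and less RNA per cell cannot be told apart.

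SLAM receptors are immunoglobulin-like proteins on the surface of blood cells. Most of them bind the same receptor on a neighbouring cell, while CD48, which is held in the membrane by a lipid anchor, binds CD2 and CD244. The cytoplasmic tails of many of them carry tyrosine motifs that bind the small adaptor SAP, a single SH2 domain encoded by Sh2d1a, while CD48 has no such tail. SAP brings in the kinase FYN, and without SAP the same motifs engage phosphatases. T follicular helper cells need SAP to stay attached to B cells in germinal centres, and loss of the human gene causes X-linked lymphoproliferative disease.

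The 6 receptor genes lay side by side on chromosome 1, and Sh2d1a on chromosome X (42502453 to 42529330, plus strand, mm10, GENCODE M21). In genome order the receptors were Ly9 (171588624 to 171607410, minus strand), Slamf7 (171632403 to 171653035, minus strand), Cd48 (171682009 to 171705258, plus strand), Slamf1 (171767127 to 171801184, plus strand), Cd84 (171839697 to 171890718, plus strand) and Slamf6 (171917515 to 171953170, plus strand). They spanned 365 kb. The last 3 of these are consecutive genes on the same strand that differed in what was measured below. In limma voom on whole reads Slamf1 fell in RT, Slamf6 rose, and Cd84 between them did not pass. Their upstream sequences are therefore shown side by side. RefSeq promoters (GRCm38.p6, the same build) were found for 5 of the 7 members. The 250 bases before the RefSeq start are printed 5′ to 3′ for these 3 genes, at chr1:171766882-171767131 for Slamf1, chr1:171839447-171839696 for Cd84 and chr1:171917212-171917461 for Slamf6, all on the plus strand. Capitals mark matches to 5 motifs, searched on both strands.
Slamf1: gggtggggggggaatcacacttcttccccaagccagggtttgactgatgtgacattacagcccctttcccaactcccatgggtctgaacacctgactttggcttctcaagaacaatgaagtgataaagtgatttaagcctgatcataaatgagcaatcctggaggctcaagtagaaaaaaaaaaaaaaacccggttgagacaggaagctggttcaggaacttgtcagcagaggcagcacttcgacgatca
Cd84: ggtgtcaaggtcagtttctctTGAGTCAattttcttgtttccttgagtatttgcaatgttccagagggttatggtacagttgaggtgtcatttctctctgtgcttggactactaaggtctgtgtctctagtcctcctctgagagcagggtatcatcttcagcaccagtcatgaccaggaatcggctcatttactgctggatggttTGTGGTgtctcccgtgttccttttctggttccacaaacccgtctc
Slamf6: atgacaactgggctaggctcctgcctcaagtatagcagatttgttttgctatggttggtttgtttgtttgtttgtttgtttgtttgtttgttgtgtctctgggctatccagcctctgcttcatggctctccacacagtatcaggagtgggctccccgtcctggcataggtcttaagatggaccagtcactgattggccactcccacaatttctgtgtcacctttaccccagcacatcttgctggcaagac
The motifs were CAGCTG (an E-box), CTTTGA (bound by TCF and LEF factors), TGTGGT (RUNX), TGANTCA (AP-1) and TTCNNNGAA (STAT). Cd84 held 1 AP-1 match, 229 to 223 bases before the start, and 1 RUNX match, 45 to 40 bases before it. The windows of Slamf7 and Cd48, which are not printed, were searched as well. Slamf7 held 1 AP-1 match, 42 to 36 bases before the start. Cd48 held 1 TCF/LEF match, 168 to 163 bases before it, and 1 RUNX match, 76 to 71 bases before it. Of 32851 promoters of the same length, 6.75% held the AP-1 letters, 14.0% the RUNX letters and 13.8% the TCF/LEF letters. The Slamf1 and Slamf6 windows held none of the 5 motifs, which says only that these letters are not in these windows. The GC content was 47.2% for Slamf1, 46.8% for Cd84 and 48.4% for Slamf6.

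Levels are given as RPKM, a read number divided by gene length and by the library total. There were 2 depths of library, and both genotypes occurred at each. Genes held 49.4% to 52.9% of the total reads of a deep library and 88.7% to 92.1% of those of a shallow one, and the RPKM of all genes summed to 133044 to 152578 and to 326187 to 366023. The labels do not say whether both were processed alike, and means over both sets mix these scales. Library totals, recovered from the spacing of the values, were 18566233 to 21800352 reads in WT1, WT2 and RT1 (deep) and 105763 to 121659 reads in WT3, WT4, RT2 and RT3 (shallow). Each member gave whole reads in all 7 libraries at a single gene length, so the reads behind each value could be given. Intervals from reads cover counting error only. Cd4 stood at 122 to 463 RPKM in all libraries and Cd8a at 0 to 4.52 RPKM. Markers of 9 B cell genes summed to 413 and 488 RPKM in WT3 and WT4 and to 30.9 to 48.5 RPKM in the other 5 libraries. B cells express SLAM receptors as well, so this sum is given below beside the members it moved with. The study design counts 4 and 3 mice, while the labels do not say whether each library came from 1 animal, so p-values measure only the spread between these libraries.

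**Figure D1:**
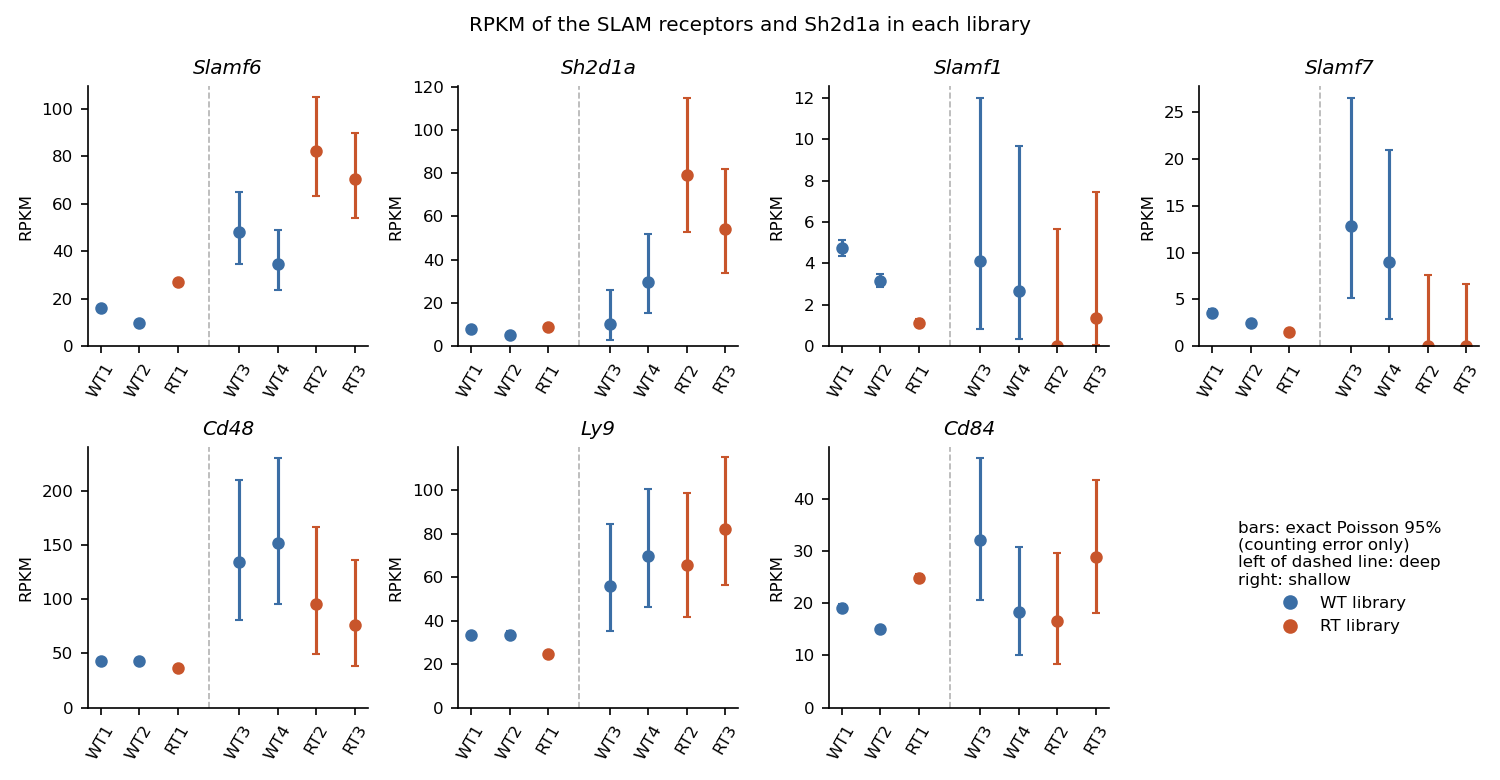
RPKM of the 7 genes (y axis) in each library (x axis), blue for WT and orange for RT, with the deep libraries left of the dashed line and the shallow ones right of it. Bars are exact Poisson 95% intervals from the reads. Slamf6 and Sh2d1a lie higher in RT within each set, Slamf1 and Slamf7 lie lower, and the intervals of the shallow libraries are wide.

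The comparison asked which members differ with genotype. In limma on log2(RPKM + 1), with terms for genotype and library set, 0 of the 7 members passed a Benjamini-Hochberg adjusted p of 0.05 over 9605 genes, and 0.271% of all genes did (0.219% higher and 0.0521% lower in RT). On simulated data this fit called 0 of 99 genes changed 2-fold and 0 of 100 changed 4-fold, so a count of 0 in it says little about a gene. Limma voom was simulated on genes with at least 10 reads in the shallow libraries. It called 10 of 92 genes changed 2-fold and 72 of 89 changed 4-fold, and made 9 false calls. At an unadjusted p under 0.05 there were 5 members (Slamf1, Slamf6, Slamf7, Cd48 and Sh2d1a), against 13.0% of all genes. In limma voom on the whole reads behind the values, with the same terms, Slamf6 rose and Slamf1 fell. In that fit 9.43% of 13002 genes were called, 5.92% higher in RT and 3.51% lower, and 4 members (Slamf1, Slamf6, Slamf7 and Ly9) had an unadjusted p under 0.05, against 30.4% of all genes. The median log2 fold change of the members was -0.03 in the first fit and -0.33 in the second, beside -0.03 and 0.08 over all genes. The difference of the genotype effect between deep and shallow libraries had SEs from 0.34 to 1.67 for the members (limma voom, adjusted p from 0.635 to 0.992). With 1 deep RT library these values do not show that the sets agree.

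Slamf6 encodes a self-binding receptor, also called Ly108, that acts through SAP in contacts between T and B cells. It stood at 16.1 and 9.81 RPKM in WT1 and WT2 and at 27.2 RPKM in RT1, from 2197, 1448 and 4366 reads. It stood at 47.9 and 34.6 RPKM in WT3 and WT4 and at 82.1 and 70.3 RPKM in RT2 and RT3, from 42, 31, 64 and 63 reads. Within each library set, every RT library lay above every wild-type one, which 10.2% of all genes also did (20.4% in either direction). Across all 7 the groups overlapped, since the shallow libraries ran higher. The ratio of the RT to the wild-type mean was 2.10 for the deep set and 1.85 for the shallow set. The log2 fold change was 0.95 ± 0.24 (SE) in limma on log2(RPKM + 1), with an adjusted p of 0.171. On whole reads it rose by 1.06 ± 0.24 (SE, limma voom adjusted p = 0.0351). It was also called among genes with at least 10 reads in the shallow libraries (1.03, limma voom adjusted p = 0.0231), where 17.8% of genes were called, 9.58% higher and 8.26% lower. Single libraries were left out of the whole-read fit that gave 1.06, not of the one that gave 1.03. The call at 1.06 was lost without RT1 (0.84 ± 0.90), WT3 (1.09), WT4 (1.03), RT2 (1.07) or RT3 (1.08). The limma voom adjusted p-values were 0.999, 0.0729, 0.0887, 0.0561 and 0.0696. The call was kept without WT1 (1.36, limma voom adjusted p = 0.0160) and without WT2 (0.70, limma voom adjusted p = 0.0206). Over both sets the WT mean was 27.1 ± 17.4 RPKM (SD, n = 4). The RT mean was 59.9 ± 28.9 RPKM (SD, n = 3), and the two-sided exact permutation p was 0.171.

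Sh2d1a encodes SAP itself. It stood at 7.85 and 5.14 RPKM in WT1 and WT2 and at 9.0 RPKM in RT1, from 486, 343 and 654 reads. In the shallow libraries it stood at 10.1 and 29.6 RPKM in WT3 and WT4 and at 79.4 and 54.2 RPKM in RT2 and RT3, from 4, 12, 28 and 22 reads. Every RT library lay above every wild-type one within its set, by a small margin in the deep libraries and a large one in the shallow libraries. The ratio of means was 1.39 and 3.37 in the 2 sets. In limma on log2(RPKM + 1) the log2 fold change was 1.29 ± 0.47 (SE), with an adjusted p of 0.316, and on whole reads it was 0.67 ± 0.32 (limma voom adjusted p = 0.206). In the shallow libraries alone Sh2d1a rose by 1.77 ± 0.48 (limma voom adjusted p = 0.0213), where 5.44% of 5887 genes were called, 2.40% higher and 3.04% lower. In the deep libraries alone, with 1 RT library, it did not pass at 0.50 ± 0.36 (limma voom adjusted p = 0.560). Without WT3 the estimate of the first fit was 0.78. On whole reads it was 0.37 without WT2, 1.0 without WT1 and 1.77 ± 0.92 (limma voom adjusted p = 0.999) without RT1, and it was called in none of these. Without RT1 the genotype difference comes from the same 4 shallow libraries as the call above, so it is no separate check. The estimate was the same and the SE larger, so the call depends on how the spread is estimated. Summed markers of CD4+ T cells moved with it in the shallow set, at 1044 and 922 RPKM in WT3 and WT4 and 1775 and 1704 RPKM in RT2 and RT3, and so did the summed cytotoxic markers, at 84.3 and 64.5 against 458 and 219 RPKM. The latter sum was mostly Nkg7 (414 and 198 RPKM in RT2 and RT3). Eomes in the same list stood at 10.1 and 5.94 RPKM in WT3 and WT4 and at 41.0 and 17.8 RPKM in RT2 and RT3. Klrd1 and Prf1 of that list were called lower on whole reads (-2.93 and -2.83, limma voom adjusted p = 0.0183 and 0.00653). Klrd1 had 1 and 3 reads in WT3 and WT4 and 0 in RT2 and RT3. In the deep set the cytotoxic sum was 31.5 and 26.2 RPKM in WT1 and WT2 against 8.97 RPKM in RT1. The CD4+ T cell sum was 495 and 547 against 443 RPKM there, so neither sum rose with Sh2d1a in that set. The defining natural killer cell markers were low in both groups of the shallow set, with Ncr1 at 0 in all 4 libraries and Klrb1c at 0 in 3 of them and at 1 read in WT4. Their part in the result was not tested. Per Cd4 RPKM, Sh2d1a stood at 0.0393 and 0.119 in WT3 and WT4 and at 0.189 and 0.117 in RT2 and RT3, so on that scale the shallow groups overlapped. GENCODE places 1465 of the 5505 exon bases of Sh2d1a opposite exons of Tenm1. The deposited values rest on a Sh2d1a length of 3334 bases, so how much of the overlap was counted is unknown. Tenm1 was low, and its highest level in any library was 0.188 RPKM.

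Slamf1 encodes a self-binding receptor, also called SLAM or CD150, that promotes interleukin 4 production in CD4+ T cells. It stood at 4.72 and 3.14 RPKM in WT1 and WT2 and at 1.13 RPKM in RT1, from 540, 387 and 151 reads. It stood at 4.10 and 2.67 RPKM in WT3 and WT4 and at 0 and 1.34 RPKM in RT2 and RT3, from only 3, 2, 0 and 1 reads. All 3 RT values lay below all 4 wild-type values, an arrangement that 4.57% of the 9605 genes showed in this direction and 9.04% in either. The zero in RT2 allows a level of up to 4.61 RPKM (3 reads), so the shallow libraries by themselves could not show this difference. The WT mean was 3.66 ± 0.93 RPKM (SD, n = 4). The RT mean was 0.82 ± 0.72 RPKM (SD, n = 3), and exact permutation, two-sided, gave p = 0.0571, which no split of 4 and 3 libraries can go below. In limma on log2(RPKM + 1) the log2 fold change was -1.38 ± 0.46 (SE, adjusted p = 0.274). On whole reads Slamf1 fell by 1.78 ± 0.35 in log2 units, with a limma voom adjusted p of 0.0213. The call was lost when RT1, the only deep RT library, was left out (-1.67 ± 1.77, limma voom adjusted p = 0.999), and it was kept without any single other library. Slamf1 had too few shallow reads for the fit of the shallow libraries alone. The B cell marker sum was 43.3 and 36.8 RPKM in WT1 and WT2 and 48.5 RPKM in RT1, where most of the Slamf1 reads lay. Other sums moved in both directions there. Naive T cell sums were 485 and 689 against 238 RPKM in RT1, and cytotoxic sums 31.5 and 26.2 against 8.97 RPKM. Plasma cell sums were 38.1 and 27.6 against 117 RPKM, and myeloid sums 182 and 117 against 498 RPKM. Dendritic cell sums were 8.95 and 5.87 against 7.12 RPKM. Siglech, Flt3 and Ccr9 of that list were lower in RT1, with Siglech at 104 and 93 reads against 0. Itgax and Zbtb46 were higher, at 340 and 156 against 526 reads and at 140 and 145 against 331 reads. The part of these cells in the Slamf1 result was not tested.

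Slamf7 encodes a self-binding receptor best known from natural killer and plasma cells. In natural killer cells it signals through the adaptor EAT-2 rather than SAP. It stood at 3.54 and 2.45 RPKM in WT1 and WT2 and at 1.55 RPKM in RT1, from 301, 225 and 155 reads. It stood at 12.9 and 8.98 RPKM in WT3 and WT4 and had 0 reads in RT2 and RT3, against 7 and 5 reads. All RT values again lay below all wild-type values. A count of 0 allows up to 6.20 RPKM in RT2 and 5.39 RPKM in RT3. The log2 fold change was -2.39 ± 0.66 (SE) in limma on log2(RPKM + 1), with an adjusted p of 0.197, and -1.17 ± 0.47 on whole reads (limma voom adjusted p = 0.141). The exact permutation p was 0.0571, two-sided. Without RT1 the first fit, which then set WT against 2 RT libraries with 0 reads each, called Slamf7 lower at -3.56 ± 0.45 (limma adjusted p = 0.0221), where 4.64% of the genes were called, 2.89% lower and 1.75% higher. The same fit on whole reads did not call it (-3.65 ± 1.66, limma voom adjusted p = 0.999). Markers of other cells moved with Slamf7. The 2 libraries with most Slamf7, WT3 and WT4, also had the highest sums of B cell, plasma cell (589 and 691 RPKM, against 27.6 to 123 RPKM elsewhere) and dendritic cell markers (84.2 and 80.4 RPKM, against 0 to 8.95 RPKM). The defining B cell marker Pax5 stood at 11.4 and 9.29 RPKM there, and at 0 to 3.68 RPKM in the other libraries. Jchain and Mzb1 of the plasma cell list stood at 441 and 516 RPKM and at 65.0 and 109 RPKM in WT3 and WT4. Of the defining markers of that list, Tnfrsf17 had 1 read in WT4 and 0 in the other 6 libraries. Sdc1 had 1 and 2 reads in WT3 and WT4 and 0 and 1 in RT2 and RT3. In the deep libraries Sdc1 had 15 and 0 reads in WT1 and WT2 and 124 in RT1. The dendritic cell marker Siglech stood at 24.9 and 12.2 RPKM in WT3 and WT4 and at 0 in every RT library, and Xcr1 at 0 in every library but WT1 (0.218 RPKM). The part of these cells in the Slamf7 result was not tested. In the deep libraries alone the log2 fold change was -0.93 ± 0.49 (limma voom adjusted p = 0.474). There the B cell sums were 43.3 and 36.8 RPKM in WT1 and WT2 and 48.5 RPKM in RT1. The plasma cell sums were 38.1 and 27.6 against 117 RPKM, and the dendritic cell sums 8.95 and 5.87 against 7.12 RPKM. Siglech had 104 and 93 reads against 0, while Itgax of the same list had 340 and 156 against 526.

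**Figure D2:**
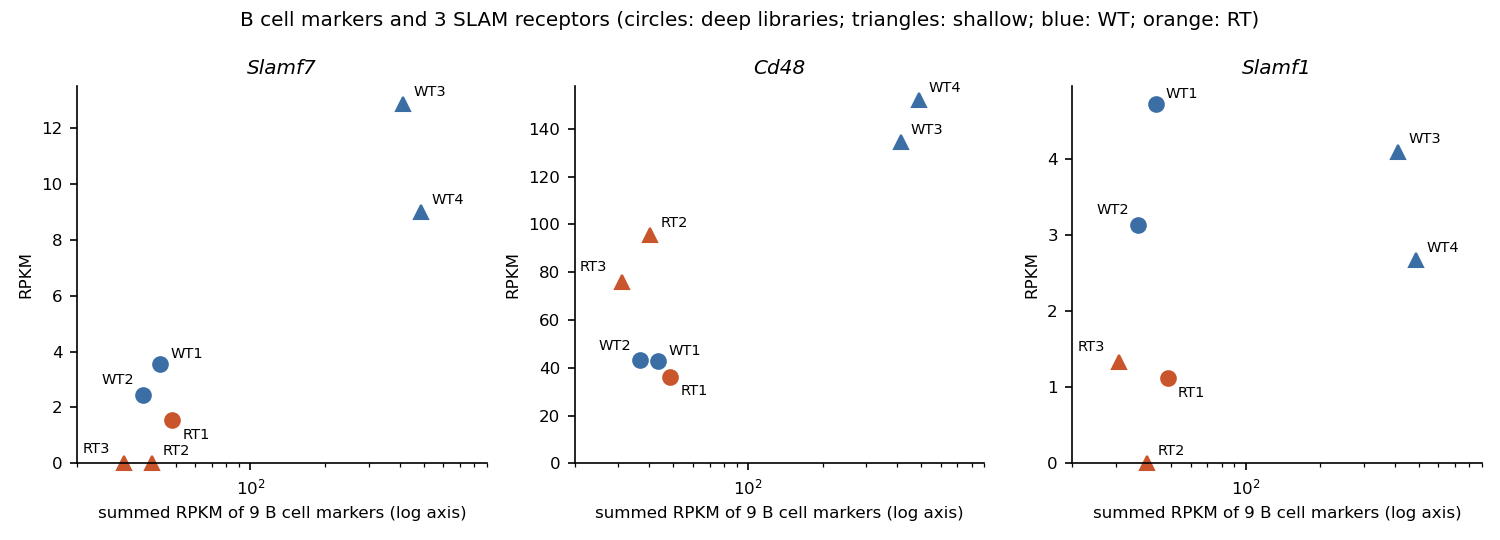
RPKM of Slamf7, Cd48 and Slamf1 (y axis) against the summed RPKM of 9 B cell markers (x axis, log scale), with 1 point per library, circles for deep and triangles for shallow libraries, blue for WT and orange for RT. WT3 and WT4 stand apart at 413 and 488 RPKM of B cell markers and are the highest libraries for Slamf7 and Cd48, but not for Slamf1.

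Cd48 encodes the lipid-anchored ligand of CD2 and CD244 and was the most abundant member per length in the mean of each group. It stood at 42.7 and 43.1 RPKM in WT1 and WT2 and at 36.3 RPKM in RT1, from 942, 1026 and 941 reads. It stood at 134 and 152 RPKM in WT3 and WT4 and at 95.4 and 76.0 RPKM in RT2 and RT3, from 19, 22, 12 and 11 reads. Every RT library lay below every wild-type one within its set, which 10.2% of all genes also did. The log2 fold change was -0.54 ± 0.19 (SE, limma adjusted p = 0.308) and -0.33 ± 0.17 on whole reads (limma voom adjusted p = 0.244). The 95% interval of the first ran from -0.99 to -0.08. The highest 2 libraries were WT3 and WT4, which also held the B cell markers, and their part in the result was not tested. Cd2, the gene of a receptor for CD48 on T cells, had a log2 fold change of 0.68 ± 0.22 (SE, limma adjusted p = 0.273) and 0.28 ± 0.14 on whole reads (limma voom adjusted p = 0.227).

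Ly9 and Cd84 passed no test, and their signs differed between the library sets. Ly9 encodes a self-binding receptor, also called CD229, that is abundant on T and B cells. It stood at 33.2 and 33.6 RPKM in WT1 and WT2 and at 24.5 RPKM in RT1. In the shallow libraries it stood at 55.9, 69.6, 65.8 and 82.0 RPKM in WT3, WT4, RT2 and RT3, where the groups overlapped. The log2 fold change was -0.03 ± 0.22 (SE, limma adjusted p = 0.962), with a 95% interval from -0.55 to 0.48. On whole reads it was -0.40 ± 0.16 (limma voom adjusted p = 0.136). The 95% interval there ran from -0.76 to -0.04, not adjusted for the number of genes tested. By set the log2 fold change was -0.48 (deep) and 0.19 (shallow) in limma voom.

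Cd84 encodes a self-binding receptor that acts with SAP in lasting contacts between follicular helper and B cells. It stood at 19.1 and 15.0 RPKM in WT1 and WT2 and at 24.8 RPKM in RT1, from 2226, 1889 and 3393 reads. In the shallow libraries it stood at 32.2, 18.4, 16.6 and 28.8 RPKM in WT3, WT4, RT2 and RT3, so RT2 was the lowest and WT3 the highest. The log2 fold change was 0.12 ± 0.32 (SE, limma adjusted p = 0.896), with a 95% interval from -0.64 to 0.88. On whole reads it was 0.47 ± 0.21 (limma voom adjusted p = 0.167), and by set it was 0.53 (deep) and -0.17 (shallow). The interval spans both directions, so it does not show that Cd84 was alike in the groups.

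**Figure D3:**
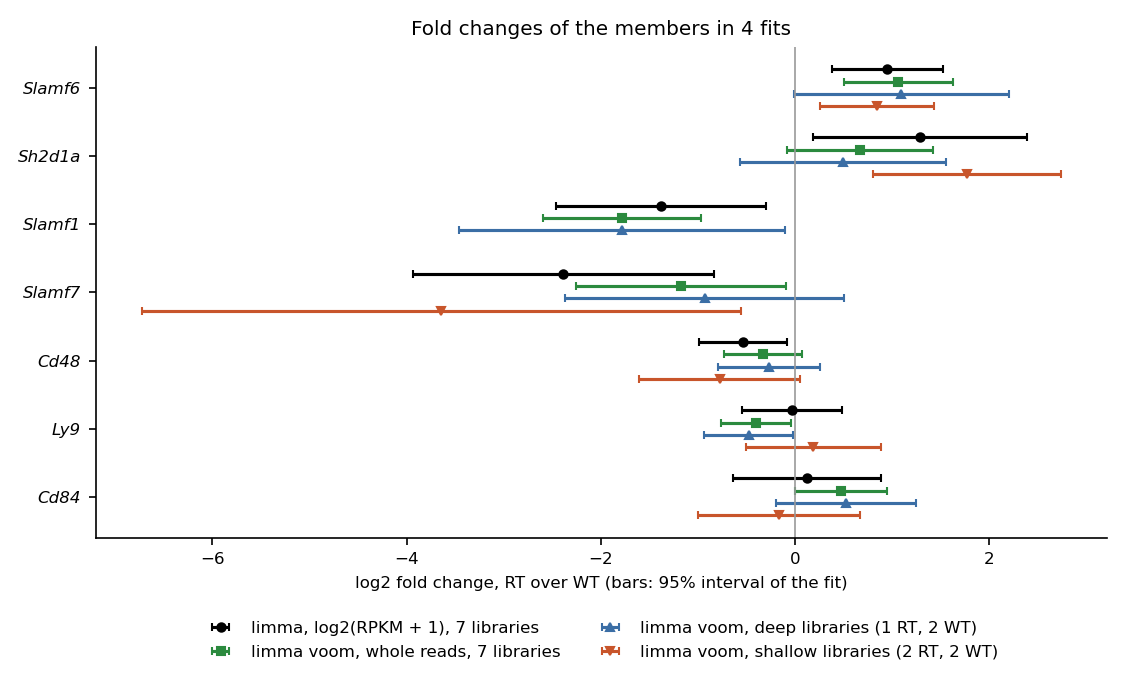
Log2 fold change of RT over WT (x axis) for each gene (y axis) in 4 fits, with bars for the 95% interval of each fit. Slamf6 and Sh2d1a lie right of 0 and Slamf1 and Slamf7 left of 0 in each fit that gave a value, while Ly9 and Cd84 change side between the deep and shallow libraries.

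The make-up of the receptor transcripts within a library does not depend on the library total. Slamf6 made up 13.5%, 9.16%, 16.7% and 12.1% of the summed RPKM of the 6 receptors in WT1 to WT4. It made up 23.5%, 31.6% and 27.2% in RT1 to RT3, so every RT library lay above every wild-type one. The means were 12.8% ± 3.1 (SD, n = 4) and 27.4% ± 4.0 (SD, n = 3). The ratio of Slamf6 to Cd48 ran from 0.227 to 0.376 in wild type and from 0.749 to 0.924 in RT. The ratio of Slamf6 to Ly9 ran from 0.292 to 0.857 in wild type and from 0.857 to 1.25 in RT, with WT3 and RT3 equal. The summed RPKM of the 6 receptors was close between genotypes within each set, at 119 and 107 against 115 RPKM in the deep libraries and 287 and 286 against 260 and 259 RPKM in the shallow ones. Slamf7 made up 2.29% to 4.47% in wild type and 0% to 1.35% in RT. Slamf1 made up 0.933% to 3.96% in wild type and 0% to 0.97% in RT, where the groups overlapped. Ly9 and Cd84 shares overlapped, at 19.5% to 31.4% and 6.41% to 16.0% in wild type against 21.2% to 31.7% and 6.38% to 21.5% in RT. The Cd48 share was 35.8% to 53.1% in wild type and 29.4% to 36.7% in RT. SAP transcript per receptor transcript, as Sh2d1a RPKM in percent of the receptor sum, was 6.58%, 4.79%, 3.51% and 10.3% in WT1 to WT4. It was 7.79%, 30.6% and 21.0% in RT1 to RT3, with RT1 inside the wild-type range. These shares were computed after the values were seen and carry no test. How often shares or ratios of other genes would fail to overlap was not computed. Of single genes, 9.04% did not overlap between the groups. Cd48, the largest share in the mean of each group, was highest in WT3 and WT4, which also held the B cell markers. The part of those cells in the shares was not tested.

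**Figure D4:**
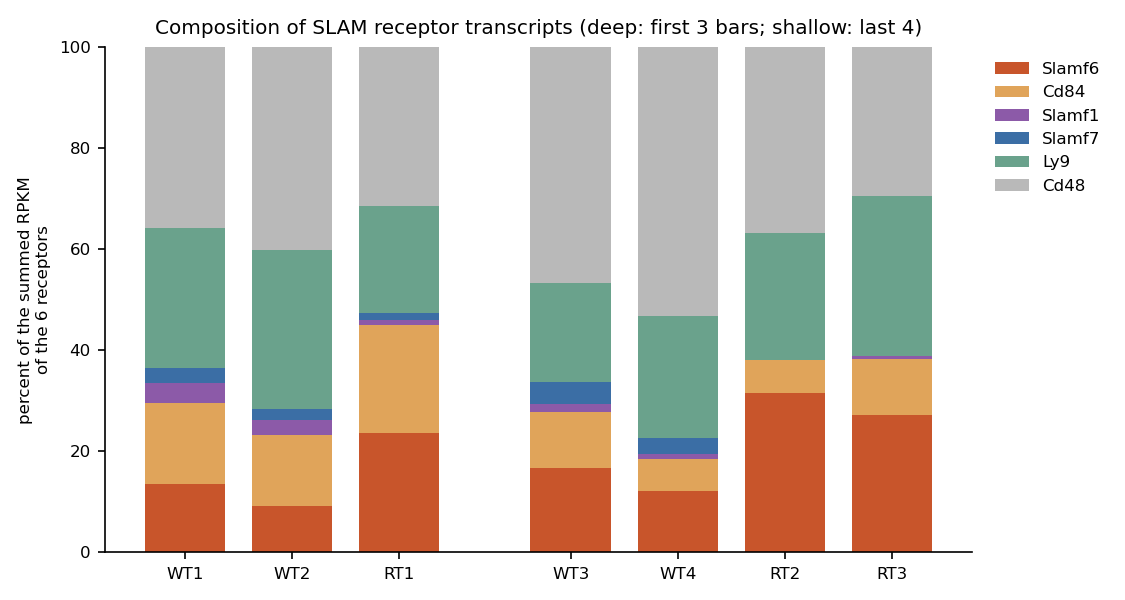
Share of each receptor in the summed RPKM of the 6 receptors (y axis, percent) in each library (x axis), deep libraries first. The Slamf6 share lies between 9.16% and 16.7% for WT and between 23.5% and 31.6% for RT.

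The order of the levels, per length in RPKM, was the same in both deep wild-type libraries: Cd48, Ly9, Cd84, Slamf6, Sh2d1a, Slamf1 and Slamf7. In RT1 it was Cd48, Slamf6, Cd84, Ly9, Sh2d1a, Slamf7 and Slamf1. There Cd84 (Poisson 95% interval 24.0 to 25.7 RPKM) and Ly9 (23.3 to 25.6 RPKM) did not differ beyond counting error. Slamf6 thus stood below Ly9 and Cd84 in WT1 and WT2 and above both in RT1. In the mean of the shallow libraries it stood below Ly9 in wild type and above it in RT, where RT2 and RT3 put Slamf6 and Ly9 in opposite orders. Slamf6 stood above Cd84 in every shallow library, at 47.9 against 32.2 RPKM in WT3 and 34.6 against 18.4 RPKM in WT4. Its change of place with Cd84 was thus seen in the deep set only.

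The partners of the pathway were read from a list of 35 genes. In limma on log2(RPKM + 1), 30 were kept and 0 passed, with a median log2 fold change of 0.12 against -0.03 over all genes. On whole reads 7 of 35 rose and 2 fell (limma voom), against 5.92% and 3.51% of all genes. Among relatives and adaptors, the SLAM family genes Slamf8 and Slamf9 and the CD48 receptor gene Cd244 did not pass, and Cd244 stood at 1.24 to 5.17 RPKM in wild type and 0 to 3.47 RPKM in RT. Sh2d1b1, the gene of the SAP relative EAT-2, was called higher on whole reads at 2.69 ± 0.62 (limma voom adjusted p = 0.0357, lost without RT1, WT1 or WT2), but it was at 0 reads in all 4 shallow libraries and at 0.169, 0.118 and 1.35 RPKM in WT1, WT2 and RT1. Sh2d1a, at 5.14 to 79.4 RPKM, stood above both Sh2d1b1 and Sh2d1b2 in every library. FYN, the kinase that SAP recruits, was encoded by a gene at 57.3, 52.1 and 75.3 RPKM in WT1, WT2 and RT1 and at 2.78 to 6.64 RPKM in the shallow libraries. The values of Fyn in the 2 sets rest on different gene lengths, so its levels cannot be compared across them.

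Downstream of SLAM and antigen receptors, Malt1, which encodes a protease of the NF-kB pathway, rose by 1.46 ± 0.27 (log2, SE) and Plcg1, a phospholipase gene, by 0.69 ± 0.12 on whole reads. Pik3r1, a regulatory subunit gene of phosphoinositide 3-kinase, fell by 0.76 ± 0.15 on the log2 scale. The other 11 genes of this group, among them Lck, Vav1 and Prkcq, did not pass. Of 4 phosphatase genes, Ptpn11, which encodes SHP-2, rose by 1.29 ± 0.23, from 15.1 to 48.3 RPKM in wild type to 48.5 to 65.8 RPKM in RT, and Ptpn6, Inpp5d and Ptpn22 did not pass. Of 5 genes for CD2 and adhesion molecules, Icam1 rose by 1.02 ± 0.23. Of 6 genes grouped as products that depend on SAP, Il21 and Icos rose by 2.93 ± 0.50 and 1.41 ± 0.30. Zbtb16 in that group, the gene of the factor PLZF of natural killer T cells, fell by 3.34 ± 0.68 with 0 reads in all 4 shallow libraries. Il4, Gata3 and Cd40lg did not pass. The limma voom adjusted p-values of these 8 genes ran from 0.0135 to 0.0342. Without RT1 none of the 8 was called (limma voom adjusted p = 0.999 for each), and Malt1 and Ptpn11 stood at 0.72 and 0.35. Only Il21 and Ptpn11 of the 8 were called without each of the other 6 libraries in turn, and Icos stood at 0.92 without WT2. Summed markers of follicular helper cells, which share Il21 and Icos with this list, stood at 71.7 to 224 RPKM in wild type and 466 to 1272 RPKM in RT. Summed markers of naive T cells stood at 485 and 689 RPKM in WT1 and WT2 against 238 RPKM in RT1, and at 1097 and 1055 RPKM in WT3 and WT4 against 629 and 688 RPKM in RT2 and RT3. Summed myeloid markers stood at 182 and 117 RPKM in WT1 and WT2 against 498 RPKM in RT1, and at 630 and 535 RPKM in WT3 and WT4 against 211 and 329 RPKM in RT2 and RT3. Of 5 measured, Csf1r and Cd14 were called higher on whole reads (1.65 and 2.51, limma voom adjusted p = 0.0332 and 0.00608). Without RT1 that fit called 0 genes. Csf1r stood at 37.8 and 32.9 RPKM in WT1 and WT2 against 133 RPKM in RT1. In the shallow set it went the other way, at 65.4 and 70.7 RPKM in WT3 and WT4 against 13.5 and 18.5 RPKM in RT2 and RT3. Cd14 stood at 0 in WT3 and WT4 and at 12.0 and 31.4 RPKM in RT2 and RT3. The part of these cells and subsets in the SLAM and partner results was not tested.

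The neighbours of the receptors on chromosome 1 were measured to see how far the differences extended. The table held 23 other genes within 300 kb of the cluster. Of these Cd244 overlaps Ly9 on the other strand without sharing exon bases, and Tma7-ps, at 0 in all libraries, lies between Cd48 and Slamf1. In limma on log2(RPKM + 1), 12 were kept and 0 passed, with a median log2 fold change of -0.04. On whole reads 19 were tested, 1 was called higher and 0 lower (limma voom), with a median of 0.29. The 1 called was Nectin4, an adhesion gene whose highest level was 2.52 RPKM. Cd244, the nearest kept gene on the side of Ly9, had a log2 fold change of 1.14 ± 0.43 on whole reads (limma voom adjusted p = 0.127) but -0.71 on the RPKM scale. Pfdn2 and Nit1, further off on that side, had 0.73 and 0.38 on whole reads. Ncstn and Copa, the nearest kept genes beyond Slamf6, had log2 fold changes of 0.03 and -0.13 on whole reads, and Alyref2, Usf1 and Arhgap30 on the side of Ly9 had 0.06, 0.05 and -0.10.

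**Figure D5:**
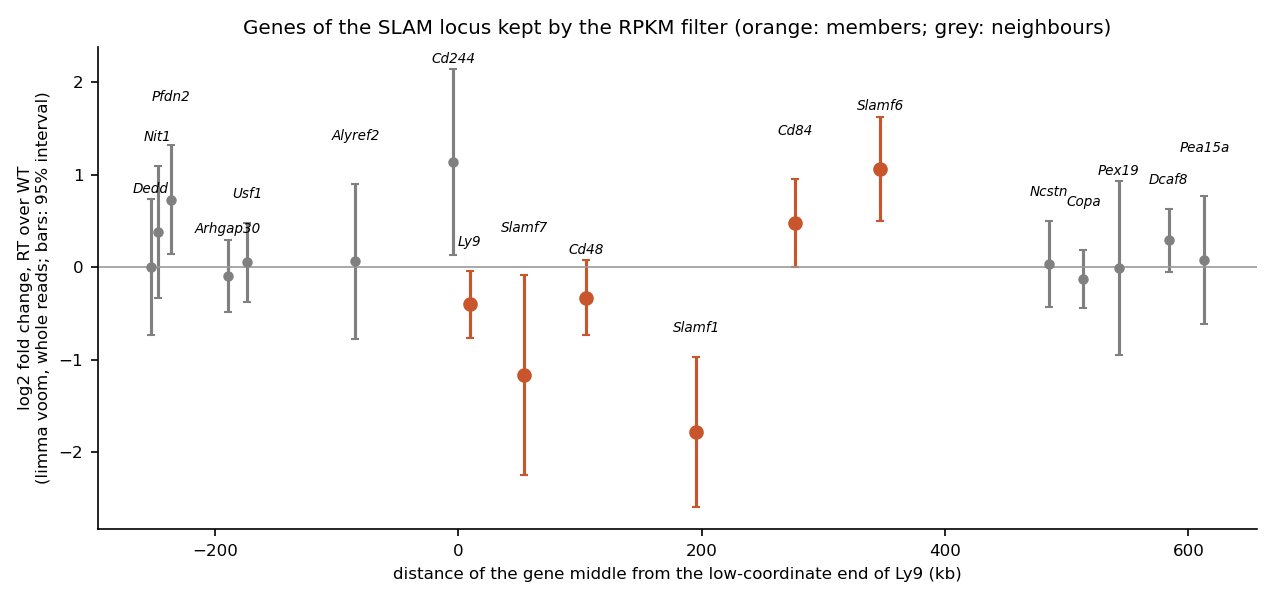
Log2 fold change of RT over WT in limma voom on whole reads (y axis, bars for the 95% interval) for the genes of the SLAM locus kept by the RPKM filter, by distance of the gene middle from the low-coordinate end of Ly9 (x axis, kb). The receptors (orange) range from -1.78 for Slamf1 to 1.06 for Slamf6, and the neighbours at both ends (grey) from -0.13 for Copa to 1.14 for Cd244.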

How the data were processed

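RNA of sorted CD4+ splenocytes was sequenced from libraries made with a TruSeq v2 kit from 150 ng of RNA, per the labels' protocols. The authors deposited 1 table of RPKM values for 19589 genes in 7 libraries. Reads were placed on mm10, as the submitters' processing notes list it. Aligner, counter, annotation and use of strand: not given in the sources used here. From the steps of the deposited RPKM values, library totals, gene lengths and whole reads were recovered for all 13859 genes above 0, of which 806 needed a second length in 1 of the sets and 13053 did not. Values were taken as whole within 0.003 reads.

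Genes with at least 1 RPKM in 3 of the 7 libraries (9605) were tested with limma 3.58.1 in R 4.3.3 on log2(RPKM + 1), with a pseudocount of 1, a trended variance and terms for genotype and library set, and Benjamini-Hochberg adjustment at 0.05 over all genes tested. A fold change on this scale understates the change of low genes. The whole reads of genes with at least 10 reads over all libraries (13002) were tested with limma voom and the same terms. Single genes were also tested by exact permutation over 35 splits. The code was tested on simulated data, where limma on log2(RPKM + 1) called 0 of the changed genes and limma voom called some of them, with 9 false calls. Alternatives changed the terms, scaling, pseudocount, filter and libraries. Leaving out libraries on whole reads, summing WT3 and WT4, and the genotype by set term were added after seeing the data. The members were named by gene symbol and not by a measured value. They, the partner and marker lists and the library set term were nevertheless chosen with earlier results of these data known. The text names the members, the partners called or tied to a member's result, the locus genes, and the 3 genes with the most similar pattern for each member. Gene positions are from GENCODE M21. WT3 and WT4 differed by more than sampling noise over 2361 genes (chi-square per degree of freedom 1.33, against 3.30 for RT2 and RT3) and were kept as 2 libraries.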

Additional observations from a re-analysis of the deposited data

How the results depend on the processing

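Depth limits the 4 shallow libraries, where 1 read in Slamf1 or Slamf7 decides a value, and RT1 is the only deep RT library. Genes called numbered 26 in limma on log2(RPKM + 1). They numbered 5 without the library set term, 0 with array weights (856 at an unadjusted p under 0.05), 5 with RPKM rescaled, 70 with quantile normalization, 4 with a pseudocount of 0.1, 0 with no filter (1328 unadjusted) and 42 with a stricter filter. On whole reads, limma voom called 1226 genes, 1050 with 10 reads in the shallow libraries, 0 in the deep libraries alone (1752 unadjusted), 320 in the shallow libraries alone and 833 with WT3 and WT4 summed. Leaving out 1 library gave 0 to 446 on RPKM, with 446 without RT1, and 0 to 1363 on whole reads, with 0 without RT1 (534 unadjusted), 1363 without WT1, 1151 without WT2, 727 without WT3, 714 without WT4, 1146 without RT2 and 830 without RT3. Members called numbered 0 on RPKM, and 2 on whole reads (Slamf1 and Slamf6), 1 with 10 reads in the shallow libraries (Slamf6), 1 in the shallow libraries alone (Sh2d1a) and 1 with WT3 and WT4 summed (Slamf1). Leaving out 1 library gave 0 to 1 on RPKM and 0 to 2 on whole reads. Slamf1, Slamf6, Slamf7 and Sh2d1a kept their direction under every alternative that gave a value. Ly9 turned to 0.16 without the set term, 0.19 in the shallow libraries, 0.0067 without WT1, 0.01 without WT2, 0.23 without RT1 (range over left-out libraries -0.18 to 0.23) and 0.19 without RT1 on whole reads. Cd84 turned to -0.17 in the shallow libraries, -0.01 without WT4, -0.15 without RT1, -0.0018 without RT3 (range -0.15 to 0.38) and -0.16 without RT1 on whole reads. Zbtb16 stood at 0.037 without RT1 on whole reads. With the replicate number as a block, 0 genes were called (882 unadjusted), Ly9 turned to 0.36 and Cd48 to 0.030. Whether the numbers pair the samples could not be told. Deviations of same-numbered libraries correlated at 0.432, -0.179 and 0.184. However, WT and RT libraries of the same set correlated positively and those of different sets negatively, so the set decides the sign.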

Other observations

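The genes whose pattern was most like that of each member were read from Pearson's r over the 7 libraries, after centring log2 values within each library set, among 3538 genes. The points share library depth and, for some genes, the B cell markers of WT3 and WT4, so these values are a description with no test. Slamf6 was nearest to Serpinb6a, Icam1 and Nfil3 (r of 0.995, 0.992 and 0.987). Slamf1 was nearest to Sec24c, Chd3 and Gpr183 (0.97, 0.97 and 0.97), and Slamf7 to Mycbp2, Adnp and Ccnd1 (0.996, 0.994 and 0.993). Cd48 was nearest to Slc28a2, Prrc2b and Srp72, and Sh2d1a to Prkab1, Tasp1 and Cetn2. Ly9 was nearest to Skp1a, Igtp and Snhg15, and Cd84 to Adam10, Endod1 and Vars.

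Set against Cd4 RPKM in the same library, Ly9 stood at 0.218 to 0.280 in wild type and at 0.157 to 0.201 in RT, and Cd48 at 0.333 to 0.612 and 0.164 to 0.298. Cd4 itself stood at 256 and 249 RPKM in WT3 and WT4 and at 420 and 463 RPKM in RT2 and RT3, which lowers any RT ratio there. Slamf6 per Cd4 stood at 0.0758 to 0.187 in wild type and at 0.152 to 0.223 in RT, where the groups overlapped. These ratios were computed after the values were seen and carry no test.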
